A study of Arabidopsis thaliana with 12 samples.

Results

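The comparison described here is that of Arabidopsis thaliana seedlings carrying SvGRP with wild-type seedlings on medium without added salt. SvGRP codes for an RNA-binding protein with a glycine-rich stretch and was taken from a plant that the design text names S. virginics. Both groups were whole seedlings of the Col-0 background named for the wild type. Seed was germinated on the plant culture medium 1/2 MS, the seedlings were moved after 5 days to plates with 0 mM NaCl, and they were harvested 24 h later at an age of 6 days. Each group had 3 samples, and each sample was hybridised to its own one-colour Agilent array, so 6 of the 12 arrays of the series belong to this comparison. The other 6 arrays held both genotypes after 24 h on 150 mM NaCl, in 3 samples each, and gave the same genotype difference in a second condition; they also entered the estimate of the spread behind every p-value. The number of transgenic lines behind the SvGRP samples and the promoter that drives the transgene were not given in the sources used here, and a difference between the groups cannot be told apart from a difference between that line and Col-0. No source said that the 3 samples of a group came from separate cultures, so the p-values rest on a spread between samples that may be technical. The SvGRP transcript itself was not analysed here, and the genotype rests on the labels.

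The members were all features on the array that were bright enough to test, 26794 in all, of which 20917 had a gene name. A level is the log2 of a probe's signal minus the 75th percentile of its array, so that a level of 0 is the brightness of that percentile and a difference of 1 is 2-fold. A difference is always the mean of the SvGRP arrays minus the mean of the wild-type arrays. A feature was called when limma's moderated test gave a Benjamini-Hochberg adjusted p under 0.05 over all 26794 features. Where 3 levels are given for a group they are the 3 arrays in ascending order. RNA came from whole seedlings, in which fewer cells of a type and less RNA per cell cannot be told apart.

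As background, glycine-rich RNA-binding proteins carry an RNA recognition motif and a flexible glycine-rich stretch, and in Arabidopsis they act on splicing, stability and export of mRNA. GRP7, the best known member, is controlled by the circadian clock, peaks around the evening and lowers the amount of its own transcript and of that of its close relative GRP8 through alternative splicing. The clock itself is a set of loops in which the morning factors CCA1 and LHY hold down evening genes such as TOC1, and the evening complex of ELF3, ELF4 and LUX holds down genes of the day. GRP7 is also known to promote flowering and to take part in defence against bacteria, while defence hormones (salicylate and jasmonate) and glucosinolates, the sulfur-rich defence compounds of the cabbage family, are themselves timed by the clock.

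Without salt, 5686 of the 26794 features were called (21.2%), 2798 of them higher in SvGRP (10.4%) and 2888 lower (10.8%). Most differences were small: the median size of a called difference was 0.41 on the log2 scale, and 989 features (3.69%) were called and at least 2-fold apart, 522 higher and 467 lower. The groups did not overlap for 13480 features (50.3%), and 9643 features had an unadjusted p under 0.05. Replicate arrays correlated at 0.9934 to 0.9949 in wild type and at 0.9945 to 0.9971 in SvGRP over all features. Leaving out an array lowered the count to between 3125 and 4029, and it was lower by over 1.5 times without replicate 3 of wild type (3593) and without replicates 1, 2 and 3 of SvGRP (3229, 3125 and 3451).

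The slides differed between the groups. All 3 wild-type arrays at 0 mM lay on slide 1, SvGRP replicates 1 and 2 lay on slide 2 and SvGRP replicate 3 on slide 3, and no slide held both genotypes at 0 mM, so no within-slide value exists. Slides 1 and 2 were linked only through the wild-type arrays at 150 mM, of which 1 (replicate 1) lay on slide 1. Slides 2 and 3 were linked only through the SvGRP arrays at 0 mM. A fit with the slide as a term therefore rests, on the slide 1 side of the step between slides 1 and 2, on that 1 array. Its difference at 0 mM draws nothing from SvGRP replicate 3. With the slide as a term in the fit, 244 features were called (0.911%), 78 higher and 166 lower, of which 198 had been called in the same direction without it. Of the 5686 calls, 5629 (99%) kept their sign in that fit, with a median size of 0.36, while the median standard error rose from 0.094 to 0.176. The value with the slide in the fit is given below for the genes on which most weight rests. The overall direction depended on the scaling: on the scale of the E1A spike-in probes, RNA added in known amounts during labelling, 16598 features were called, 95.7% of those calls were higher in SvGRP, and the median difference of all features was 0.388 in place of 0.03. Directions below are therefore relative to the bulk of the transcripts on the array. Of the 26794 features, 15887 were called higher and 711 lower on the spike-in scale. Counts of list members on that scale, given below, are to be read against this background, since most features were higher there.

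**Figure D1:**
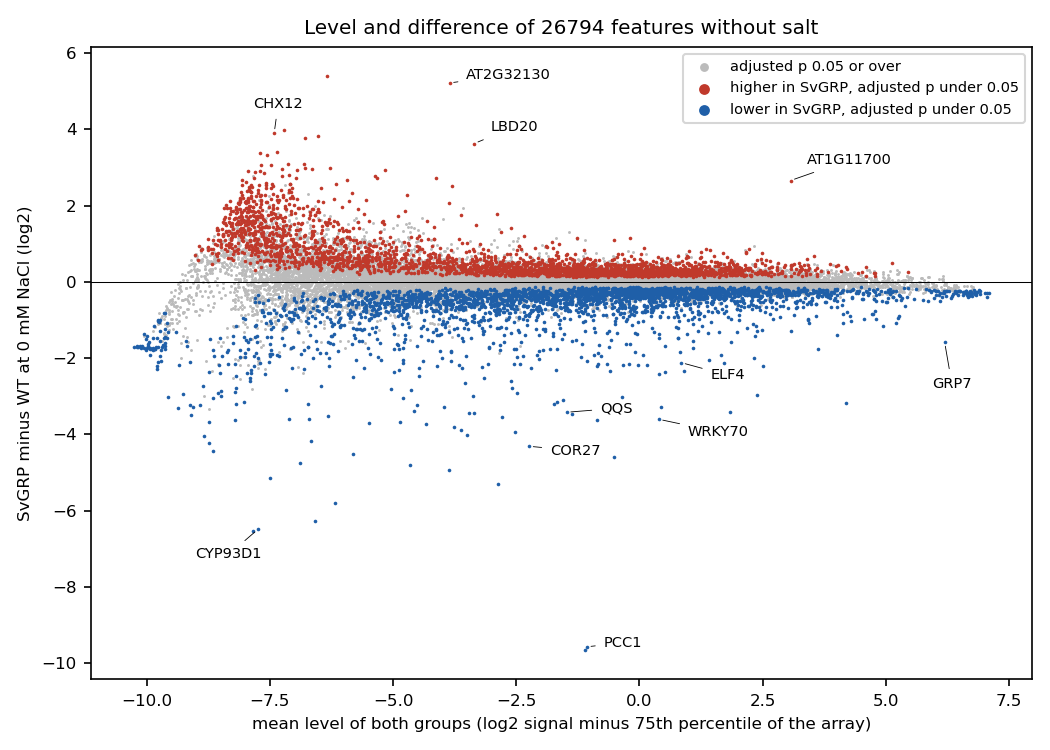
Each point is a feature; the horizontal axis is the mean level of the 6 arrays at 0 mM NaCl (log2 signal minus the array's 75th percentile) and the vertical axis is the difference, SvGRP minus wild type (log2), with red for 2798 features called higher and blue for 2888 called lower. Large rises lie at the dim left side, large falls across the whole range, and PCC1 had a difference of -9.56.

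The large rises and the large falls did not lie at the same brightness. Among features with a mean level over -4, 18 were called at least 2-fold higher and 199 at least 2-fold lower. Below a level of -6, 454 were at least 2-fold higher and 192 lower. A dim feature had to be above the 20th percentile on every array of some group to be tested, so dim features that passed through the SvGRP arrays had to be higher there, and no direction is read from these counts. Without that filter the calls at any size were 2935 higher and 5571 lower (34.5% higher). A level at or below that percentile is taken here as dim, and 246 of the 522 features that were at least 2-fold higher were dim on all 3 wild-type arrays, as were 146 of the 467 that were at least 2-fold lower on all 3 SvGRP arrays. The lowest signal of an array lay between 5.17 and 6.25 on the wild-type arrays and between 1.97 and 2.21 on the SvGRP arrays, and 79 called features were dim in both groups. The part of this floor in the counts at the dim end was not tested.

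The largest fall among genes with a symbol was that of PCC1 (AT3G22231), a small membrane-associated protein whose transcript responds to pathogens and to the clock. Its level was 3.61, 3.62 and 3.92 on the wild-type arrays and -6.30, -5.95 and -5.30 on the SvGRP arrays. The groups lay far apart, and the difference was -9.56 (SE 0.88, adjusted p = 0.00018). With the slide in the fit it was -10.04, with an adjusted p of 0.053. A further 4 named genes with large falls were dim on every SvGRP array, so that only bounds can be given: the ankyrin repeat gene ANK was at least 19.4-fold lower (measured difference -6.27), the cytochrome P450 genes CYP93D1 and CYP71B22 at least 9.35-fold and 9.26-fold lower (-6.49 and -4.76), and the metal transporter gene ZIP7 at least 2.15-fold lower (-4.22). The bounds set each wild-type mean against the mean 20th percentile of the SvGRP arrays, which is the cut of the filter. All 4 genes were called with adjusted p between 4.57e-06 and 0.000412. With the slide in the fit CYP93D1 (adjusted p = 0.012) and ZIP7 (0.0033) stayed called, and ANK (0.099) and CYP71B22 (0.078) did not. ANK, CYP93D1 and CYP71B22 passed the 20th-percentile filter only through the wild-type arrays at 0 mM, and ZIP7 only through wild-type arrays. The direction of these falls was thus largely set by the filter. Among named genes whose groups did not overlap, the 12 largest falls also held SIB1 (-3.93), a regulator of defence gene expression that binds WRKY factors, the ethylene response factor ERF13 (-3.90), the membrane protein gene DMP1 (-3.72), the high-affinity potassium transporter gene HAK5 (-3.67), WRKY70 (-3.60), COR27 (-4.31) and the lectin gene JAL23 (-3.70 by its brighter probe). Of these, ERF13 (-3.23, adjusted p = 0.091) and JAL23 (-2.64, 0.35) lost the call with the slide in the fit. A second, dimmer probe for JAL23 gave the opposite direction, with levels of -9.27, -8.58 and -8.33 in wild type and -2.13, -2.12 and -1.64 in SvGRP. Its difference was 6.77, so no direction is given for that gene.

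Of the 12 largest rises among genes with a symbol, 6 were dim on all wild-type arrays. LBD20, a transcription factor of the lateral organ boundaries family, was above that range in both groups. Its level was -5.27, -5.21 and -5.03 in wild type and -1.74, -1.64 and -1.24 in SvGRP, a difference of 3.63 (SE 0.26, adjusted p = 3.99e-05) that was 2.70 with the slide in the fit (adjusted p = 0.023) and 3.58 at 150 mM. The cation/proton exchanger gene CHX12 was dim in wild type and at least 5.89-fold higher in SvGRP (measured difference 3.90). The protease gene DegP13, the lipase gene GLIP2, the cell wall gene GATL4, the spermidine acyltransferase gene SDT and the kinase gene SnRK1.3 were likewise dim in wild type, with bounds of at least 3.58-fold, 3.33-fold, 2.94-fold, 2.65-fold and 2.17-fold. The remaining members were XTH1 (2.77) and GH9B15 (2.52), both coding for enzymes of cell wall polysaccharides, CYP704B1 (2.45), a fatty acid hydroxylase of the pollen wall, the glutamate receptor-like gene GLR2.9 (2.31) and NAC012 (2.00), a regulator of secondary walls. The wild-type levels of 4 of these 5 were in part dim, on 2 of 3 arrays for XTH1, CYP704B1 and GLR2.9 and on 1 of 3 for NAC012, so those differences rest on signals near the floor; GH9B15 was dim on none. Of the 5, GLR2.9 was called with the slide in the fit (2.9, adjusted p = 0.032).

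Several genes known in the reference table by a locus alone moved as far, and 6 of them were chosen for display after their values were seen. AT1G07050 had levels of -0.54, -0.10 and -0.05 in wild type and -5.60, -5.54 and -5.44 in SvGRP, a difference of -5.30 (SE 0.14, adjusted p = 1.15e-07). AT5G23240, listed in RefSeq as a DNA J protein, fell by 4.6, and AT4G19430 was dim on all SvGRP arrays and at least 8.83-fold lower. In the other direction, AT2G32130 rose from levels of -6.57, -6.41 and -6.40 to -1.44, -1.37 and -0.93, a difference of 5.21 (SE 0.33). AT1G11700 stood at 1.72, 1.73 and 1.75 in wild type and at 4.28, 4.31 and 4.59 in SvGRP (difference 2.66, SE 0.13), which makes it the 1 feature with a mean level over 0 that was called at least 2-fold higher. AT3G44950 rose by 2.73. All 6 were also called with the slide in the fit, with adjusted p between 0.000112 and 0.00513.

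The endogenous relatives of the introduced protein came first among the functional groups examined. Counts of called members, here and in every list below, are to be read against all features, of which 10.8% were lower and 10.4% higher. GRP7 (AT2G21660) had levels of 6.81, 7.01 and 7.12 in wild type and 5.30, 5.43 and 5.47 in SvGRP. The groups did not overlap, and the difference was -1.58 (SE 0.08, adjusted p = 4.35e-06), or -1.47 with the slide in the fit (adjusted p = 0.0089). In wild type this probe stood at 82.9% of the highest signal of the array, and 2 further GRP7 probes gave larger falls, of 1.97 and 2.18. GRP8 (AT4G39260) had levels of 5.58, 5.75 and 5.88 in wild type and 4.51, 4.71 and 4.79 in SvGRP, with a difference of -1.07 (SE 0.12, adjusted p = 0.000456). Its second probe gave -1.20. GRP7 and GRP8 are similar in sequence and probes may bind both, so the share of each is uncertain.

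Over the whole list, which adds the cold shock domain proteins to the glycine-rich RNA-binding ones, 12 of 14 members were tested, 5 were lower and 0 higher, with a median of -0.16 against 0.03 over all features. On the spike-in scale 2 of the 12 were lower and 4 higher with a median of 0.20, and GRP7 and GRP8 were the 2 that stayed lower. The other 3 calls were small: GR-RBP4 fell by 0.40, GR-RBP5 by 0.26 and CSP3, a cold shock domain protein that acts as an RNA chaperone, by 0.16. GR-RBP5 and CSP3 turned to 0.10 and 0.20 on the spike-in scale. The remaining members had differences of -0.34 (GR-RBP3), -0.17 (CSP2), -0.13 (GR-RBP2), -0.05 (GR-RBP6), -0.04 (CSP1), 0.09 (RZ-1A) and 0.16 (CSP4), and none passed the test. Among 21 tested splicing regulators, 5 were lower and 2 higher with a median of 0.02, beside 10.8% lower and 10.4% higher among all features. SCL33 and RS2Z33, serine/arginine-rich splicing factors, fell by 0.40 and 0.37, and SC35 rose by 0.31. With spike-in scaling 15 of those 21 were higher and 0 lower.

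Of the clock genes, 8 of 14 evening genes tested were lower and 6 of 12 morning and day genes higher. COR27, a clock-controlled and cold-responsive regulator, showed the sharpest separation, with levels of -0.18, -0.06 and -0.01 in wild type and -4.44, -4.41 and -4.33 in SvGRP (difference -4.31, SE 0.10, adjusted p = 4.52e-08). PRR3, a pseudo-response regulator that stabilises TOC1, had levels of -1.47, -1.18 and -0.98 in wild type and -4.04, -3.97 and -3.94 in SvGRP (difference -2.77, SE 0.13). For the evening complex, ELF4 stood at 1.76, 1.92 and 2.03 in wild type and at -0.24, -0.21 and -0.18 in SvGRP (difference -2.12, SE 0.09). These 3 genes separated without overlap, with spreads within each group below 0.5. LUX, the DNA-binding member of the evening complex, had levels of 0.43, 0.62 and 0.80 in wild type and -1.05, -1.0 and -0.97 in SvGRP (difference -1.62, SE 0.11), and its 3 probes gave -1.55 to -1.68. TOC1, the repressor that closes the loop on CCA1 and LHY, had levels of -0.49, -0.39 and -0.11 in wild type and -1.58, -1.57 and -1.45 in SvGRP (difference -1.21, SE 0.10).

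None of the 14 evening genes was called higher, the median was -0.38, and 4 were lower with the slide in the fit: COR27 (-4.25), PRR3 (-2.45), ELF4 (-2.30) and LUX (-1.59). TOC1 had -1.15 there with an adjusted p of 0.056. Smaller falls were those of FKF1 (-0.43), a blue-light receptor of the flowering pathway, ELF3 (-0.41) and ELF4-L4 (-0.34), of which ELF4-L4 was 0.02 on the spike-in scale, where 5 evening genes were lower and 3 higher. The rest did not pass: GI, a large protein that links the clock to flowering, had -0.12, ELF4-L2 -0.17, ELF4-L1 -0.15, ELF4-L3 -0.08, ZTL 0.01 and LKP2 0.14. GI had levels of 0.15, 0.21 and 0.30 in wild type and 0.06, 0.10 and 0.13 in SvGRP. The gene AT4G33980, which has no symbol in the gene table and is not counted in the list, had levels of 0.22, 0.33 and 0.53 in wild type and -3.22, -3.11 and -2.99 in SvGRP (difference -3.47, SE 0.14, adjusted p = 1.1e-06), or -3.54 with the slide in the fit (adjusted p = 0.003).

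Of the 12 morning and day genes, 2 were lower, and the median was 0.25. CCA1 had levels of 0.78, 0.88 and 1.06 in wild type and 1.47, 1.54 and 1.62 in SvGRP (difference 0.64, SE 0.07, adjusted p = 0.0005), and its other 2 probes gave 0.82 and 0.92. LHY, its partner, had levels of -1.51, -1.40 and -1.22 in wild type and -0.82, -0.74 and -0.71 in SvGRP (difference 0.62, SE 0.10). LNK3 (0.79), LNK2 (0.51) and LNK1 (0.21), which belong to a family of co-activators for day genes, and the day repressor PRR9 (0.57) were also higher, though a second LNK1 probe gave -0.04. RVE2, a CCA1-like factor, fell by 1.03 and PRR5 by 0.77. RVE1 (0.28), RVE7 (0.16), PRR7 (0.08) and RVE4 (0.03) did not pass. None of the 12 was called with the slide in the fit, in which CCA1 had 0.51 and LHY 0.35.

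**Figure D2:**
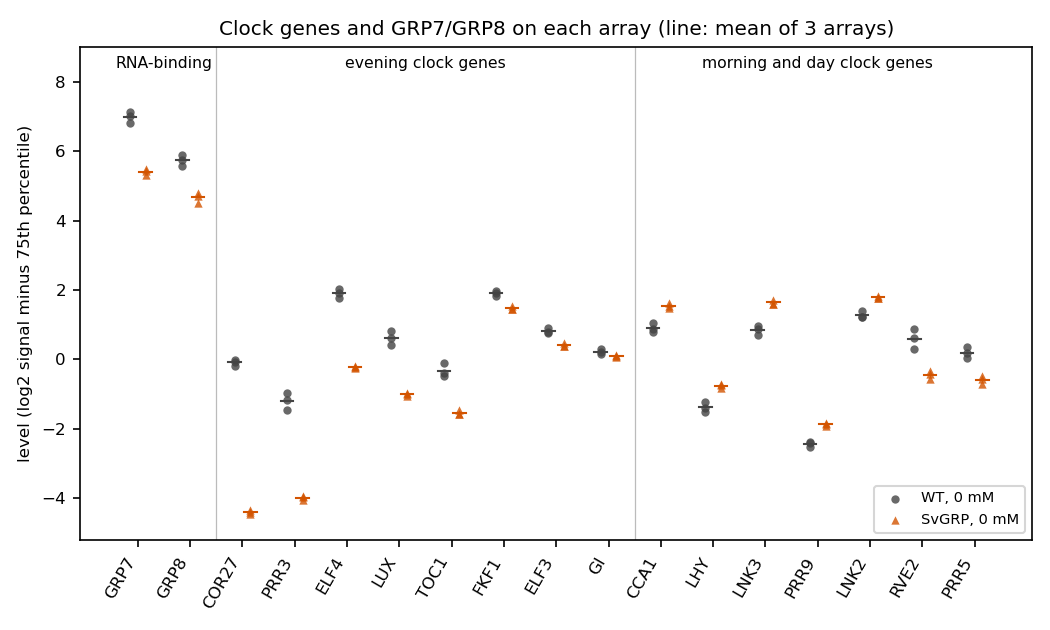
Each symbol is an array at 0 mM NaCl, with circles for the 3 wild-type arrays, triangles for the 3 SvGRP arrays and a line at the mean; the vertical axis is the level (log2 signal minus the array's 75th percentile), and levels of different genes are not comparable. COR27, PRR3, ELF4, LUX and TOC1 are lower in SvGRP without overlap, GI differs by -0.12, and CCA1, LHY, LNK3, PRR9 and LNK2 are higher.

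Among 27 flowering regulators tested, 8 were higher and 5 lower, with a median of 0.02, beside 10.4% higher and 10.8% lower among all features. The largest changes were falls in activators of flowering: AGL24, a MADS-box activator, had levels of -2.77, -2.40 and -2.28 in wild type and -4.76, -4.75 and -4.67 in SvGRP (difference -2.24, SE 0.12, adjusted p = 5.38e-06), and -2.24 with the slide in the fit (adjusted p = 0.010). FUL fell by 1.97, SPL3 by 1.12 and SOC1 by 0.36, and the repressor TEM1 fell by 0.43. The rises were all below 0.5 and included repressors of flowering: CDF1 (0.46), CDF2 (0.41) and CDF3 (0.49), which hold down CONSTANS, and the AP2-type repressors SMZ (0.44), SNZ (0.42) and TOE1 (0.34); the remaining 2 were MAF3 (0.27), an FLC relative, and FLD (0.23), which represses FLC. FLC had -0.03 and FT -0.18, and neither passed. With spike-in scaling 17 of the 27 were higher and 3 lower, beside 15887 and 711 of all 26794 features.

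Light signalling genes were higher in 7 of 22 tested and lower in 1, with a median of 0.16. PIF7 (0.50), SPA1 (0.37) and PIF5 (0.31), all of which favour growth in the dark or in shade, led the rises, HYH (0.26), COP1 (0.24), PHYB (0.21) and BBX24 (0.16) made up the rest, and HY5, the factor that promotes the light-grown form, fell by 0.38. With the slide in the fit none was called, and HY5 had -0.51 with an adjusted p of 0.054. With spike-in scaling 16 were higher and 0 lower.

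Genes of starch turnover were lower in 8 of 13 tested and higher in 0, with a median of -0.52. QQS, an Arabidopsis-specific gene whose loss raises leaf starch, had levels of 0.18, 0.25 and 0.26 in wild type and -3.35, -3.31 and -2.91 in SvGRP. The groups were more than 3 apart, and the difference was -3.42 (SE 0.17, adjusted p = 3.53e-06), or -4.04 with the slide in the fit (adjusted p = 0.000393). BAM3, the main beta-amylase of leaf starch breakdown, fell by 1.32, the debranching enzyme ISA3 by 0.80, the phosphatase SEX4 by 0.67, DPE1 by 0.53 and PHS2 by 0.50. Second, dimmer probes did not pass for BAM3 (-0.68, adjusted p = 0.082), DPE1 (-0.29, 0.319) and PHS2 (-0.06, 0.874). With the slide in the fit QQS alone of the list was called. On the spike-in scale 4 were lower and 0 higher with a median of -0.16.

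The salicylate list held the largest single fall of the lists examined, that of PCC1. Of 32 members tested, 9 were lower and 0 higher, with a median of -0.32, while on the spike-in scale 7 were lower and 7 higher with a median of 0.05. Those that fell were response genes and regulators. WRKY70, a transcription factor at the crossing of salicylate and jasmonate responses, had a level of 2.19 on all 3 wild-type arrays and levels of -1.57, -1.53 and -1.14 in SvGRP (difference -3.60, SE 0.11, adjusted p = 2.56e-07). NIMIN1, which binds the salicylate receptor NPR1, had levels of -3.46, -2.62 and -2.54 in wild type and -6.44, -6.26 and -6.11 in SvGRP (difference -3.40, SE 0.28). ACD6, a membrane protein that amplifies salicylate signalling, had levels of -0.28, 0.08 and 0.21 in wild type and -3.21, -3.15 and -2.91 in SvGRP (difference -3.10, SE 0.19). For none of them did an SvGRP array reach the wild-type range.

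LURP1 (-2.35), WRKY54 (-2.18), CBP60G (-1.03), PAD4 (-0.52) and NIMIN3 (-0.32) were also lower, NIMIN3 turning to 0.04 on the spike-in scale. Sizes depended on the probe. A second, dimmer LURP1 probe gave -8.18, with SvGRP levels of -10.92, -9.73 and -9.54, and the other ACD6 probe gave -5.53. WRKY54 is the closest relative of WRKY70, and CBP60G activates salicylate synthesis. With the slide in the fit, WRKY70 (-3.37), NIMIN1 (-3.50), ACD6 (-2.70), LURP1 (-2.60) and WRKY54 (-2.28) were called. The synthesis gene ICS1 had 0.29, NPR1 0.00 and EDS1 0.06, and none passed. PR2, a secreted glucanase, varied widely, from -7.65 to -4.20 in wild type and from -10.47 to -5.29 in SvGRP, and its difference of -2.38 did not pass (adjusted p = 0.241). PR1 was not among the features tested.

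Among 15 ethylene genes tested, 3 were lower and 0 higher, with a median of 0.03. The share called was near the 21.2% of all features, so the count is no trait of this list. ERF104, an early defence response factor released by a MAP kinase, had levels of 1.09, 1.1 and 1.24 in wild type and -2.0, -1.84 and -1.78 in SvGRP (difference -3.01, SE 0.10, adjusted p = 4.05e-07; -3.00 with the slide in the fit). ERF6 fell by 2.15 and ACS6, an enzyme of stress-induced ethylene synthesis, by 1.55. The ethylene receptor genes ETR2 and ERS1 had 0.08 and 0.02, and neither passed. The spike-in scale put 7 of the list higher and 3 lower.

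Jasmonate genes were lower in 7 of 24 tested and higher in 0, beside 10.8% lower and 10.4% higher among all features. The median was -0.39, which was -0.03 on the spike-in scale and 0.37 with the slide in the fit. The vegetative storage protein gene VSP2, a common reporter of jasmonate, had levels of 1.38, 1.67 and 1.79 in wild type and -1.23, -0.71 and -0.49 in SvGRP (difference -2.43, SE 0.20). Other VSP2 probes gave -2.88 and, for the dimmest, -0.19, which did not pass (adjusted p = 0.367). The tandem copy VSP1 fell by 2.33, and probes may not tell the copies apart. LOX2, the chloroplast lipoxygenase that starts jasmonate synthesis, fell by 2.21, CORI3 by 1.91 and the defensin gene PDF1.2 by 4.16. PDF1.2 was also the most variable, with levels from -7.11 to -2.41 in wild type and from -10.78 to -7.10 in SvGRP, so that its groups overlapped. Its adjusted p of 0.035 rose to between 0.0779 and 0.117 without replicate 2 or 3 of wild type or replicate 1 or 2 of SvGRP. PDF1.2 passed the 20th-percentile filter only through the wild-type arrays at 0 mM. Smaller falls were those of AOC2 (-0.95) and the transcription factor MYC2 (-0.63). Of the list, VSP2 alone was called with the slide in the fit (-1.97, adjusted p = 0.024).

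The list of aliphatic glucosinolate synthesis had the highest share of called members of the lists examined. Of 21 members tested, 18 were lower and 0 higher, with a median of -0.78, and on the spike-in scale 9 were lower and 1 higher with a median of -0.42. CYP79F1, which commits chain-elongated methionine to the pathway, had levels of 0.68, 0.68 and 1.23 in wild type and -1.39, -1.29 and -1.16 in SvGRP (difference -2.14, SE 0.51, adjusted p = 0.017). Its call was lost on leaving out any of 3 arrays (adjusted p 0.0511 to 0.0545). BCAT4, which starts the elongation, had levels of 0.86, 0.97 and 1.23 in wild type and -1.02, -0.92 and -0.73 in SvGRP (difference -1.91, SE 0.24, adjusted p = 0.000938). Both were lower by more than the spread of either group. Along the pathway, the elongation enzyme MAM1 fell by 1.27, the core enzymes GSTF11 by 1.5 and CYP83A1 by 0.91, and the regulators MYB76 and MYB29 by 1.62 and 0.87. MYB28, the main regulator of the pathway, had -0.09 and did not pass (adjusted p = 0.671). With the slide in the fit the median was -0.58 and 0 of the 21 were called, with CYP79F1 at -1.82 and BCAT4 at -1.49.

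Indole glucosinolate genes were lower in 5 of 15 tested and higher in 0, with a median of -0.07 that turned to 0.29 on the spike-in scale. The largest of these falls was that of TGG2, a myrosinase that breaks glucosinolates down, from levels of 2.92, 3.05 and 3.15 in wild type to 1.5, 1.69 and 1.72 in SvGRP (difference -1.41, SE 0.08, adjusted p = 7.02e-06), and it had the same difference of -1.41 with the slide in the fit (adjusted p = 0.0052). The regulator MYB51 fell by 0.84, ESM1 by 0.66 and UGT74B1 by 0.61. The first enzymes of the indole branch, CYP79B2 and CYP79B3, both had 0.05. In the list of sulfate uptake and sulfur deficiency, 4 of 10 were lower and 1 higher with a median of -0.35, or 0.01 on the spike-in scale. SDI1 and LSU1, induced when sulfur is short, fell by 1.41 and 1.12, LSU2 by 1.04 and the reductase gene APR1 by 0.63, while SLIM1, the regulator of that response, rose by 0.22. None of these was called with the slide in the fit.

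**Figure D3:**
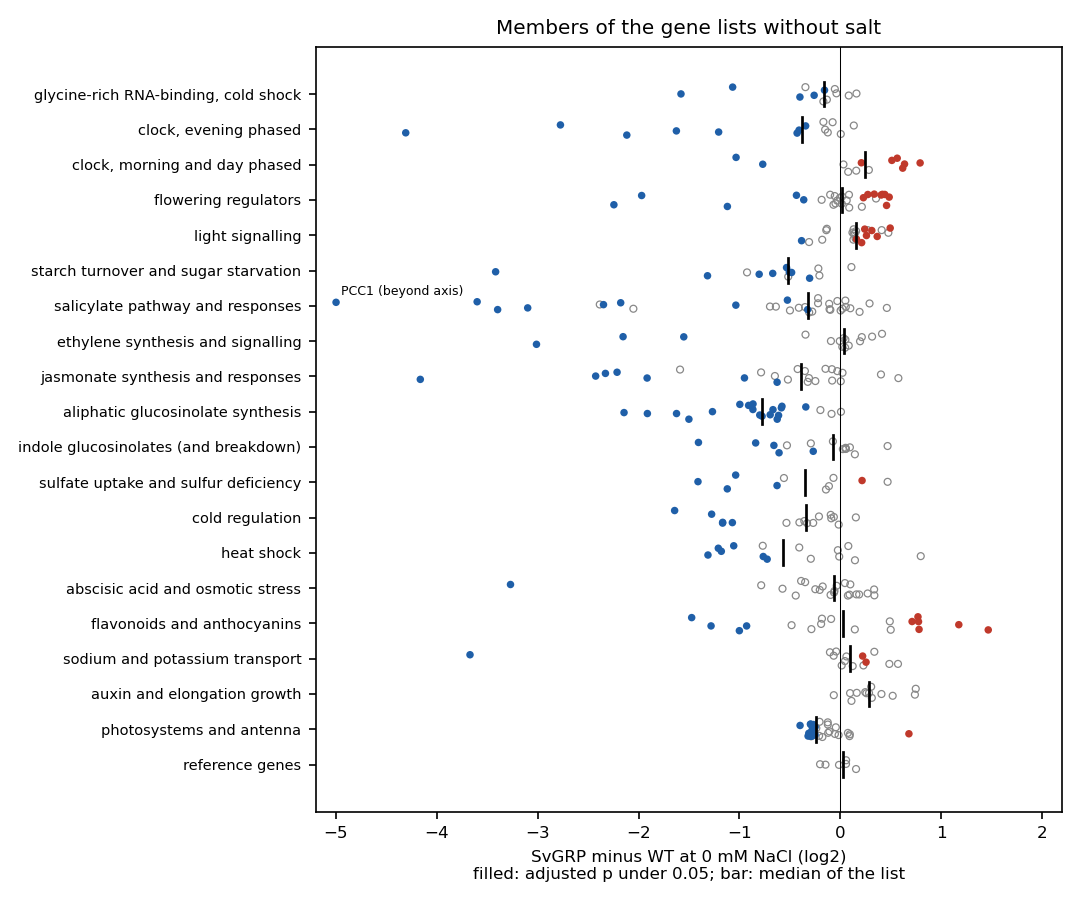
Each point is a tested member of a gene list, at its difference between SvGRP and wild type at 0 mM NaCl (log2); filled points passed the test (red higher, blue lower) and the bar is the list's median; PCC1, at -9.56, is drawn at the edge. Aliphatic glucosinolate genes lie lower almost as a group, salicylate, jasmonate and evening clock genes spread far to the left, and 6 reference genes lie between -0.20 and 0.16.

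Cold-regulated and heat shock genes that were called without salt were all lower in SvGRP. Of 16 cold-regulated genes tested, 5 were lower and 0 higher, beside 10.8% lower and 10.4% higher among all features. The median was -0.34, or 0.02 on the spike-in scale, where 5 were lower and 0 higher. KIN2 had levels of 5.47, 5.55 and 5.56 in wild type and 4.22, 4.42 and 4.45 in SvGRP (difference -1.17, SE 0.06, adjusted p = 6.11e-06; -1.05 with the slide in the fit). KIN1, next to it on the chromosome and similar in sequence, fell by 1.07, COR15A and COR15B, which protect chloroplast membranes, by 1.17 and 1.27, and the zinc finger repressor ZAT10 by 1.64. The CBF factors that switch on this group had differences of -0.40, -0.09 and -0.21, and none passed.

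Of 14 heat shock genes tested, 6 were lower and 0 higher, with a median of -0.57, and on the spike-in scale 3 were lower and 1 higher. HSP90.1, a cytosolic chaperone, had levels of -0.49, -0.25 and 0.01 in wild type and -1.64, -1.60 and -1.41 in SvGRP (difference -1.31, SE 0.16, adjusted p = 0.00092). The heat stress factor HSFA2 fell by 1.18, HSP17.4 by 1.21, MBF1C by 0.76 and HSP70 by 0.72, and none was called with the slide in the fit. In contrast with these, 1 of 22 genes of abscisic acid and osmotic stress was called, the lipid transfer protein gene LTP4, which fell by 3.28, and the list's median was -0.06. RD29A, a reporter of drought and salt stress, had levels of 2.15, 2.16 and 2.39 in wild type and 1.36, 1.76 and 1.85 in SvGRP, and its difference of -0.57 did not pass (adjusted p = 0.110).

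Of 14 sodium and potassium transport genes tested, 2 were higher and 1 lower, with a median of 0.09. The share called was near the 21.2% of all features, so the count is no trait of this list. HAK5 had levels of -3.24, -3.13 and -2.68 in wild type and -6.89, -6.80 and -6.38 in SvGRP (difference -3.67, SE 0.25, adjusted p = 2.46e-05; -3.64 with the slide in the fit). SOS2, the kinase of the sodium exclusion pathway, rose by 0.22 and CLC-A, which loads nitrate into the vacuole, by 0.26. The sodium exporter gene SOS1 had -0.10, which was 0.26 on the spike-in scale, and the sodium transporter gene HKT1 had 0.49, with adjusted p of 0.207 and 0.054. A second, dimmer HKT1 probe gave 0.65 and passed when every probe was tested on its own (adjusted p = 0.011). The spike-in scale put 11 higher and 1 lower.

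The flavonoid list was called in both directions. Of 18 members tested, 6 were higher and 4 lower, with a median of 0.03. FLS1, flavonol synthase, had levels of 0.93, 0.95 and 1.49 in wild type and -0.39, -0.36 and -0.28 in SvGRP (difference -1.47, SE 0.15). MYB12, the regulator of flavonol synthesis, fell by 1.00, TT4, chalcone synthase, by 0.93 and TT7 by 1.28. Of those that rose, LDOX, an enzyme of anthocyanin synthesis, had levels of -7.47, -7.08 and -6.99 in wild type and -5.92, -5.82 and -5.39 in SvGRP (difference 1.47, SE 0.17), DFR rose by 1.18, TT19 by 0.78, the regulator TT8 by 0.78, UF3GT by 0.77 and 5MAT by 0.71, though a second TT19 probe gave 0.16 and did not pass (adjusted p = 0.464). All 6 that rose had wild-type levels below -3.5. MYB12 was called with the slide in the fit (-1.30, adjusted p = 0.048).

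Among the photosystem and antenna genes, 13 of 30 were lower and 1 higher, with a median of -0.24, but quantile normalization gave 1 lower and 3 higher with a median of 0.03, and the spike-in scale gave 0 lower and 7 higher. The 13 had differences from -0.40 (PSBO1) to -0.25, and before scaling their log2 signals differed by -0.12 to 0.03. They stood at 61.9% to 100% of the highest signal of the array in wild type, while the 75th percentile was 0.28 higher in SvGRP (log2). Over all 130 features with a wild-type level above 6, 69 were lower and 0 higher, with a median of -0.25. No direction is therefore given for this list. Of 13 Calvin cycle genes 4 were lower, and none is given for them either, RBCS1A (-0.28) among them, apart from CP12-2 (-0.65). CP12-2 stood at 3.6% of the highest signal in wild type and had -0.37 before scaling. Its call was lost on leaving out any of 5 arrays (adjusted p 0.0778 to 0.12). LHCB2.1, also well below the brightest signals, had 0.68 by 1 probe, which passed. Another of like brightness gave 0.11 and did not pass (adjusted p = 0.623).

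Of 12 genes that remove reactive oxygen, 3 were higher and 4 lower with a median of 0.00. The chloroplast copper/zinc superoxide dismutase CSD2 (0.67) and its copper chaperone CCS (0.53) rose together with the catalase CAT2 (0.24), and CAT3 (-0.50), CAT1 (-0.49) and the iron superoxide dismutase FSD2 (-0.41) fell; a second CAT1 probe gave 0.32. The spike-in scale put 7 of the 12 higher and 0 lower. Nutrient lists had few calls: the phosphate starvation RNA IPS1 (1.05) and PHF1 (0.25) rose among 14, BTS (0.36) and ABCG37 (0.31) rose among 19 iron genes, and among 16 nitrogen genes GLU1 rose by 0.35 while NIA2, nitrate reductase, fell by 0.28. A second GLU1 probe gave -0.78, and NIA2 was 0.08 on the spike-in scale. Of 11 aquaporins TIP1;1 fell by 0.24, which was 0.12 on the spike-in scale. Among 22 expansins and xyloglucan endotransglucosylases, XTH22 (TCH4), a touch-induced wall enzyme, fell by 1.74 and XTH9 by 0.63, while EXPA1 rose by 0.38 and XTH17 by 0.50.

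No member was called among 13 auxin and elongation genes (median 0.29), 9 cell division genes (0.08), 8 ribosome biogenesis genes (-0.12) and 6 reference genes (0.02). On the spike-in scale 11, 5, 4 and 4 of them were higher. Cell type markers were called in 1 of 14 root, 1 of 11 shoot and 3 of 4 seed storage genes tested, beside 21.2% of all features. Of the 14 root markers SCR alone was called (0.24), and the summed signal of the list, relative to the 75th percentile, lay between 3.85 and 5.17 on the wild-type arrays and between 3.64 and 5.30 on the SvGRP arrays. Of 11 shoot markers STM, a meristem factor, alone was called (-0.44), and the sum lay between 9.27 and 9.89 in wild type and between 10.002 and 10.607 in SvGRP, without overlap. Of the 4 seed storage genes tested, CRA1 (1.34), OLEO2 (1.77) and OLEO1 (1.87 measured, dim in wild type and at least 1.91-fold higher) were higher, with sums of 0.022 to 0.038 in wild type and 0.065 to 0.096 in SvGRP, again without overlap. Such a lack of overlap was also seen for 50.3% of all features, so it is no trait of these lists. The part of these markers in the other differences was not tested.

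The same genotype difference could be read a second time at 150 mM NaCl, from the means of 6 other arrays. The comparisons are not independent, since they share 1 estimate of the spread over the 12 arrays. The slide fit at 0 mM also draws on the wild-type arrays at 150 mM. With the 6 arrays at 0 mM alone, 7608 features were called. At 150 mM 7747 features were called (28.9%), 2746 higher (10.2%) and 5001 lower (18.7%). Of the 5686 features called at 0 mM, 2386 were called in the same direction at 150 mM, which was 42.0% of the calls at 0 mM and 30.8% of those at 150 mM, and 168 were called in the opposite direction. The shared calls held 947 higher and 1439 lower features, or 33.8% of those higher and 49.8% of those lower at 0 mM. The sign was the same for 80.6% of the calls at 0 mM and for 63.5% of all features. Across all features, which are not independent replicates and share slides and scaling, the differences at 0 and 150 mM correlated with Pearson's r of 0.307 and Spearman's rho of 0.319.

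A test of the difference between the salt conditions (the interaction of genotype and salt) called 2402 features (8.96%), and 1023 of the 5686 calls at 0 mM were among them (18%). Of the 141 features called at least 4-fold lower at 0 mM, 69 had such an interaction, and the median difference of the 141 was -2.77 at 0 mM and -1.12 at 150 mM. For the 120 at least 4-fold higher, 25 had an interaction and the medians were 2.36 and 0.71. Since these features were chosen for their size at 0 mM, a smaller median at 150 mM follows in part from the choice.

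The differences of several defence and stress genes depended on the salt condition. WRKY70 had -3.60 at 0 mM and -0.96 at 150 mM (interaction adjusted p = 0.000324), NIMIN1 -3.40 and -0.21 (0.0046), ACD6 -3.10 and -0.34 (0.0019), and PCC1 -9.56 and -3.95 (0.026). ERF104 had -3.01 and -0.74 (interaction adjusted p = 0.000324), and ACS6 -1.55 and 0.12 (0.0016). HSP90.1, at -1.31 without salt, had 0.03 with it, and KIN1 went from -1.07 to 0.05 (interaction adjusted p = 0.012 and 0.003). In all, 6 of 32 salicylate, 4 of 15 ethylene, 6 of 16 cold and 3 of 14 heat shock genes had an interaction. Over all features the share was 8.96%. The genes given here were chosen among calls at 0 mM, so a smaller difference at 150 mM follows in part from the choice.

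Among evening clock genes 1 of 14 had an interaction, COR27 (-4.31 and -2.31), while ELF4 (-2.12 and -2.04), LUX (-1.62 and -1.72) and TOC1 (-1.21 and -1.28) had interaction adjusted p between 0.717 and 0.752. That count is near the share of 8.96% over all features. It was also 1 of 12 for morning and day genes, 1 of 27 for flowering and 1 of 22 for light signalling genes, so it is no trait of the evening genes. GRP7 had -1.58 and -1.32, with an interaction adjusted p of 0.179. Of the morning genes CCA1 had 0.64 and 0.94 and LHY 0.62 and 0.37. Of the aliphatic glucosinolate genes, 19 of 21 were lower at 150 mM, with a median of -1.59, and the 7 with an interaction included BCAT4 (-1.91 and -3.59) and CYP83A1 (-0.91 and -2.37). LDOX and DFR, which were higher without salt, had -0.21 and -0.47 at 150 mM (interaction adjusted p = 0.0064 and 0.012).

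**Figure D4:**
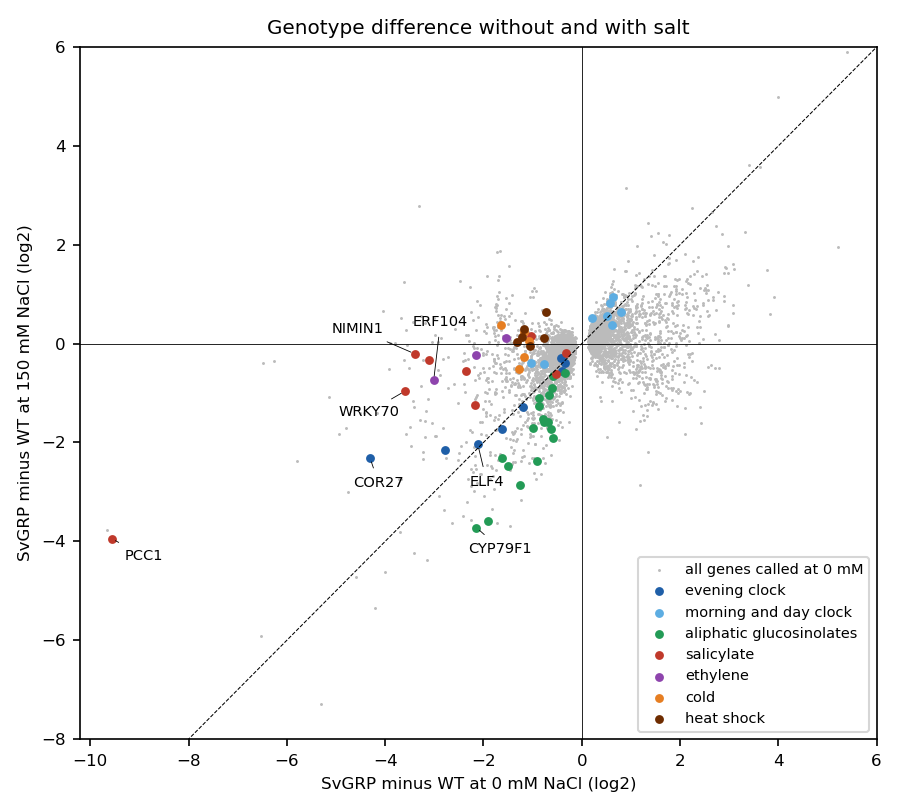
Each grey point is a feature called at 0 mM NaCl, with its difference (SvGRP minus wild type, log2) at 0 mM on the horizontal and at 150 mM on the vertical axis; coloured points are called members of 7 gene lists and the dashed line marks equal differences. Called evening clock genes lie near the line except COR27 (-4.31 and -2.31), salicylate, ethylene, cold and heat shock genes lie towards 0 on the vertical axis, and aliphatic glucosinolate genes lie below the line. All points were chosen by their call at 0 mM, so smaller differences at 150 mM follow in part from the choice.

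A stricter selection was met by 134 features: called at 0 mM, called at 0 mM with the slide in the fit, and called in the same direction at 150 mM. Of these 118 were lower and 16 higher. The selection does not keep out signals at the floor. CSLA01 was dim on every array of both groups at 0 mM, so its difference there (-1.71) is not read. Others, ZIP7 and AT4G19430 among them, were dim on all SvGRP arrays at 0 mM, so only bounds hold for their size there. The call at 150 mM was taken without the slide; with the slide in that fit as well, 55 of the 134 stayed called in the same direction. Among the genes described above, the lower ones included AT1G07050, AT4G19430, AT5G23240, COR27, PRR3, ELF4, LUX, GRP7, WRKY70, WRKY54, ERF104, QQS, HAK5, VSP2, AT4G33980, AGL24, TGG2, KIN2, ZIP7, DMP1 and MYB12, and the higher ones LBD20, GLR2.9, AT2G32130, AT1G11700 and AT3G44950. In this set AT1G07050 had -7.29 at 150 mM, QQS -4.24, HAK5 -2.75 and AT1G11700 2.66. Among the genes named, KIN2 (-0.04), WRKY70 (-0.67), ERF104 (-0.78), HAK5 (-2.59), DMP1 (-1.93), MYB12 (-0.93) and GLR2.9 (1.14) lost the call at 150 mM with the slide in the fit, with adjusted p between 0.051 and 0.884. TOC1, GRP8, PCC1, CCA1, LHY, CYP79F1 and LOX2 were called at both salt levels but not with the slide in the fit.

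**Figure D5:**
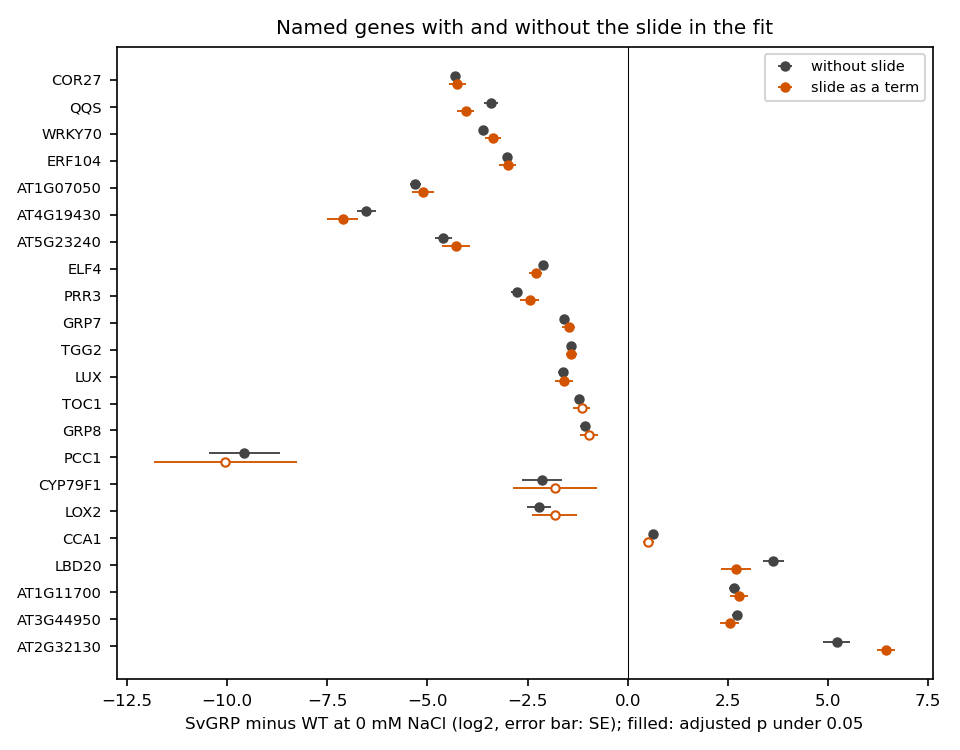
Points are differences at 0 mM NaCl (SvGRP minus wild type, log2) with their standard errors, in dark grey from the fit without and in orange from the fit with the slide as a term, filled where the adjusted p was under 0.05. Every gene keeps its sign, errors are wider with the slide, and TOC1, GRP8, PCC1, CYP79F1, LOX2 and CCA1 are open with it.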

How the data were processed

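Log2 levels were made from the processed signal intensity that the authors deposited for each of 12 one-colour Agilent arrays, an intensity already background-corrected by Agilent Feature Extraction, which is named in the submitters' processing notes without a version. RNA (0.5 ug) was labelled with Cy3, per the labels' protocols. The 75th percentile of the 43603 non-control probes was subtracted from log2 intensity on each array. The deposited series table of log2 values was the same quantity centred on each probe's median, within 0.000389. Probes had to exceed their array's 20th percentile on every array of some group (35454 did), and each gene was represented by its brightest probe on average, giving 26794 features; 1081 of 1281 called genes with several probes had all probes of the same sign. The fit (limma 3.58.1, R 4.3.3) had 1 mean for each of the 4 groups over the 12 arrays, with 8 residual degrees of freedom and Benjamini-Hochberg adjustment over all features. On simulated data of this comparison with 26794 genes, the fit called 80% of genes changed 2-fold and 98% of those changed 4-fold and 9 unchanged genes. The simulation changed 100 genes at each size and had independent noise without a slide effect. It therefore cannot show how many of the calls in the real data follow the slides. Probe names come from the platform annotation, updated through RefSeq (TAIR10.1). Precision is limited by the 3 arrays per group.

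The comparison and the 33 gene lists (604 members, 589 used because 15 names were not in the gene table, 524 tested) were chosen with earlier results of these data known, so counts over lists are descriptions. Of the 15, 14 were tested under a locus alone, AT4G33980 among them (listed as COR28), and 1 was higher and 3 were lower. Named genes are, from called genes that have a symbol and no overlap, the 12 with the largest rise and the 12 with the largest fall, up to 4 called members per list and direction, all members of the RNA-binding and clock lists and a short list of clock, flowering, defence and salt genes; others are named where they bear on a statement. Alternatives were other scalings, filters, probes, variance models and array sets, the slide, and the replicate number as a block. A description of promoter letters that had been planned was not run, since no sequence was used here. No per-sample column was left unused (0).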

Additional observations from a re-analysis of the deposited data

Results flagged for a closer look

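A test of the difference between salt conditions (difference at 150 mM minus difference at 0 mM, adjusted p under 0.05) picked out 2402 of all features (8.96%) and 47 of the 182 genes named here. Of the 47, 35 had a smaller difference at 150 mM and 12 a larger one. Many of the 182 were named for the size or call of their difference at 0 mM, so a smaller one at 150 mM follows in part from the choice. In what follows each value is the difference at 150 mM minus that at 0 mM in log2. A positive value on a gene lower in SvGRP is thus a smaller fall with salt.

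The largest positive changes came first. The P450 gene CYP93D1 had a change of 6.10 and ANK of 5.92, but both were dim on every array except those of wild type without salt, so the difference at 150 mM was not measured and these values restate the gap at 0 mM. PCC1 changed by 5.62, ERF13 by 3.90, SIB1 by 3.41, NIMIN1 by 3.19, ACD6 by 2.76, WRKY70 by 2.64, LURP1 by 1.79 and WRKY54 by 0.93. The ethylene genes ERF104, ERF6 and ACS6 changed by 2.28, 1.92 and 1.67.

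Cold, heat and osmotic genes moved the same way: LTP4 by 3.83, ZAT10 by 2.02, COR15A by 1.40, RD29A by 1.22, KIN1 by 1.11, KIN2 by 0.90, HSFA2 by 1.47, HSP70 by 1.37 and HSP90.1 by 1.34. The wall enzyme XTH22 changed by 1.16, COR27 by 2.00 and AT4G33980 by 1.41. PSBO1 (0.37), LNK1 (0.32) and GR-RBP2 (0.48) changed by less than 0.5.

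Values were negative for glucosinolate genes, whose fall was larger with salt: BCAT4 (-1.68), MAM1 (-1.59), CYP83A1 (-1.47), GSTF11 (-0.98) and the myrosinase TGG2 (-0.55). AT1G07050 (-1.99), VSP2 (-1.07), TIP1;1 (-0.83) and AGL24 (-0.63) were also lower still with salt. Among genes that were higher in SvGRP without salt, AT2G32130 changed by -3.26, GLR2.9 by -1.43, IPS1 by -1.62, XTH17 by -0.97 and PHF1 by -0.35. The flavonoid genes LDOX (-1.68), DFR (-1.64), UF3GT (-1.48), TT19 (-0.87) and TT8 (-0.73) belonged to this group as well.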

How the results depend on the processing

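Against 5686 calls (49.2% higher; 2386 shared with 150 mM), quantile normalization gave 47.7% higher, scaling to the array median 46.2%, no filter on dim probes 34.5%, a strict filter 46.3%, the 6 arrays at 0 mM alone 51.1% and every probe on its own 51.8%. On the spike-in scale there were 16598 calls, 95.7% higher. Requiring a 2-fold difference left 989, 52.8% higher. The slide as a fixed term gave 244 calls, 32% higher, with 58 shared with 150 mM, and as a random block (within-slide correlation -0.165) 10264, 56.2% higher, with 4421 shared. The cause of these moves was not tested. Leaving out an array gave 3125 to 4029 calls, 39.5% to 49.2% higher, and 1470 to 1924 shared. The replicate numbers did not pair the samples (correlations of same-numbered deviations 0.0127, -0.152 and -0.165); with the replicate number as a block 4209 features were called, 45.7% higher.

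Of 182 named genes, 158 were called, and with the slide as a term 124 of these lost the call with the same sign. The remaining 58 of the 182 stayed on their side of the threshold. They include genes called in neither fit, for which a change of sign was not counted. Leaving out an array took the call from 21 to 37 of the named genes. CAT2, CSP3, EXPA1, LNK1, MYC2, SCR, SLIM1, TIP1;1 and XTH17 lost it whichever of the 6 arrays was left out. No named gene called in either of the fits compared reversed under quantile or median scaling, the filters, the variance model, the slide, the block or the leave-one-out fits. On the spike-in scale 21 named genes turned positive. Called on either scale were ELF4-L4 (0.017), ELF4-L3 (0.29), GR-RBP5 (0.10), CSP3 (0.20), GR-RBP6 (0.31), CSP1 (0.32), NIMIN3 (0.037), LHCB1.1 (0.041), RBCS1A (0.077), SOS1 (0.26), TIP1;1 (0.12) and NIA2 (0.077); the other 9, GR-RBP2, GR-RBP3, CSP2, GI, ELF4-L1, ELF4-L2, FLC, FT and MYB28, were called on neither. By the probe with the second highest mean LNK1 (-0.039), CAT1 (0.32), GLU1 (-0.78) and JAL23 (6.77) turned. Of 70 named genes with a second probe 14 lost the call with the same sign and HKT1 gained it. The 14 were BAM3, BTS, CCS, DPE1, LHCB2.1, LSU1, NIA2, OLEO1, PHS2, PIF5, PSBO1, RBCS1A, STM and TT19. Signals near the array's highest value bound what the photosystem probes can show, and dim probes what rises can show.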

Other observations

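Of 344 named genes that were at least 2-fold lower, 52 (15.1%) had a tested neighbour that was also at least 2-fold lower, against 679 (3.25%) of all 20890 genes with a place in the annotation. Of 320 that were at least 2-fold higher, 30 (9.38%) had such a neighbour in the same direction, against 633 (3.03%). The lower pairs included members of stress and defence families: PCC1 (-9.56) lies beside AT3G22235 (-1.96), which lies beside AT3G22240 (-1.40), and CYP93D1 (-6.49) beside CYP712A2 (-3.19). KIN1 and KIN2, COR15B and COR15A, VSP2 and VSP1, LSU3 (-1.80) and LSU1 (-1.12), and XTH25 (-1.30) and TCH4 (-1.74) are tandem relatives, in which probes may bind both copies. Other pairs join genes of different families, such as the receptor kinase gene RLK1 (-1.88) and AGL8 (-1.97), the name the annotation gives to FUL. The ferric reductase genes FRO4 (-1.09) and FRO5 (-2.77) were a further lower pair, outside the iron list used above.

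Probes of a single gene disagreed in 37 called genes, in the sense that another probe of the gene was called in the opposite direction. In 3 genes probes were called at least 2-fold higher and at least 2-fold lower. JAL23 had 6.77 and -3.70, AT2G24693 had 1.37 and -1.68, and SZF1, a zinc finger gene of the salt and wound response, had 1.98, -0.73 and -1.55 on its 3 probes. Whether such probes read different transcripts was not tested.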
